A study of Mus musculus with 17 samples.

Results

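Bulk RNA-seq libraries of sorted brain myeloid cells were examined for 38 genes of the lysosome in a mouse study of Trem2 cell therapy. The set holds acid hydrolases and their helper proteins, proteins of the lysosomal membrane, the transcription factors that switch lysosomal genes on, and progranulin; cathepsins were left out. Members were taken by gene symbol from a fixed list, which was chosen with earlier results of these data known. All 38 were found among the 13501 genes of the deposited table of normalized read counts. All 38 passed the filter on low values, which left 12074 genes for testing. Each of the 38 had a normalized count of 10 or more in all 17 libraries.

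The libraries fall into 5 groups of living CD45+CD11b+ cells from brain. Trem2 knockout transplants (4 libraries) were labelled circulation-derived myeloid cells from Trem2 knockout donors in Trem2 knockout 5xFAD hosts, after bone marrow transplantation (BMT) with PLX5622, an inhibitor of the receptor CSF1R that depletes microglia. Trem2 wild-type transplants (4 libraries) were made in the same way with Trem2 wild-type donors in Trem2 knockout 5xFAD hosts. Trem2 knockout 5xFAD microglia (3 libraries) and Trem2 wild-type 5xFAD microglia (3 libraries) came from untreated mice that carry the 5xFAD transgenes, which drive amyloid deposition in neurons. Normal microglia (3 libraries) came from untreated wild-type mice without 5xFAD. The labels give neither age nor sex, and do not say which part of Trem2 was removed. The origin of the cells and the BMT plus PLX5622 treatment changed together. The gate does not separate donor cells from host microglia that were left, so a transplant library may hold both. Nothing in the labels says that the replicates were separate animals, and the p-values therefore reflect the spread among these libraries, which may be technical.

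Lysosomes break down what a phagocyte has taken up, each linkage by its own acid hydrolase, and the loss of a single hydrolase leads to storage of its substrate. The hydrolases are tagged with mannose 6-phosphate on their way to the lysosome, and the membrane around them holds heavily glycosylated proteins, ion channels and transporters. TFEB, TFE3 and MITF are related factors that enter the nucleus when the kinase mTOR is off and bind a short promoter element shared by many lysosomal genes. Microglia take up myelin debris and amyloid, and TREM2 is the lipid-sensing receptor through which they change state around plaques.

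Each library held between 16044078 and 30606394 reads. Trem2 followed the labels in all 17 libraries, at 3962 to 5965 normalized counts in the 7 knockout libraries and 31205 to 53908 in the other 10. All 12 microglia markers and all 6 general myeloid markers of the lists used were detected in each group. The summed microglia markers were 485026 to 521296 in Trem2 knockout transplants, 429133 to 454741 in Trem2 wild-type transplants, 855925 to 884661 in Trem2 knockout 5xFAD microglia, 830292 to 847565 in Trem2 wild-type 5xFAD microglia and 979757 to 1062317 in normal microglia. S25 and S27 (Trem2 knockout 5xFAD microglia) and S34 (Trem2 knockout transplant) stood apart from the other libraries of their groups. They held 0.257%, 0.246% and 0.201% mitochondrial reads, against 0.0579% to 0.153% in the other 14 libraries, and results that rest on them are given with and without them. Within groups, 3 pairs of libraries were closer than any other: S30 with S31, S22 with S23, and S25 with S27, at chi-square values of 4.98, 6.21 and 9.86 per degree of freedom, against 13.6 to 136 for other pairs.

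The promoters of 36 of the 38 genes were matched by symbol in RefSeq, on build GRCm38.p6; Asah1 and Galns were not matched. Each window runs from 250 bases before to 50 bases after an annotated start, and the 36 genes have 46 windows. The strings TCACGTG and CACGTGA, which are reverse complements, contain CACGTG and form the core of the element bound by the TFEB family, were searched on both strands. They occurred in 9 of 46 windows (19.6%), 1 each in 9 genes, against 1237 of 32851 windows of the same length over all genes (3.77%). The 9 genes were Gla, Glb1, Arsa, Sgsh, Naglu, Gaa, Lgmn, Lamp1 and Mcoln1. A match describes the letters of the window and does not show that a factor binds there. The windows of 6 genes on which later comparisons turn are shown 5′ to 3′ on the strand of the gene, with each match in capitals.
Gla: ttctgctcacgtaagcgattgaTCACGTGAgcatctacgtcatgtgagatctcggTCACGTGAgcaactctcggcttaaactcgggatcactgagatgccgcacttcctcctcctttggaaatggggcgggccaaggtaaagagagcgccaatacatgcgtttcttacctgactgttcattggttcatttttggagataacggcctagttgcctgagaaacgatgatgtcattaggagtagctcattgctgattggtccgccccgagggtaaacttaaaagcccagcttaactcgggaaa
Glb1: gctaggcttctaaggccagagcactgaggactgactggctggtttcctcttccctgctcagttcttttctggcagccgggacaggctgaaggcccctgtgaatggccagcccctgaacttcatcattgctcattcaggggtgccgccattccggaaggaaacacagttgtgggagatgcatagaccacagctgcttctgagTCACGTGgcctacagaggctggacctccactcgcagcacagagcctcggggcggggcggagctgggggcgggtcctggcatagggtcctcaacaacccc
Gaa: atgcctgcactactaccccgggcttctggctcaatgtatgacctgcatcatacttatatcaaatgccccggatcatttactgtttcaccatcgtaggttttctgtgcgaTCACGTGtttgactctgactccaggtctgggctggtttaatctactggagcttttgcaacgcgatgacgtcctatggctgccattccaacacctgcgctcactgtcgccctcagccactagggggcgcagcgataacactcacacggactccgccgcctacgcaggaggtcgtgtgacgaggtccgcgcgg
Sgsh: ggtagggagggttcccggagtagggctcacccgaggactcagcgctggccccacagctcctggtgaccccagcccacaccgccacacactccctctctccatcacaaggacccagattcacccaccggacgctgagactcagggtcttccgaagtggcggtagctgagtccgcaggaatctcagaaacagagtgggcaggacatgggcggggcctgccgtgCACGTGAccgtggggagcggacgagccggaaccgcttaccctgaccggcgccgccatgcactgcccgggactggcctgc
Lamp1: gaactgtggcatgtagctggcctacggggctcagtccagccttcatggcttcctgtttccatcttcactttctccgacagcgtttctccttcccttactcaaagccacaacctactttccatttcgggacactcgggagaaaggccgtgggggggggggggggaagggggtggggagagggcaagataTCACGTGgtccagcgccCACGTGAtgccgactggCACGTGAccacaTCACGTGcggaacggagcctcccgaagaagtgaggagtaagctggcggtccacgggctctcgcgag
Gusb: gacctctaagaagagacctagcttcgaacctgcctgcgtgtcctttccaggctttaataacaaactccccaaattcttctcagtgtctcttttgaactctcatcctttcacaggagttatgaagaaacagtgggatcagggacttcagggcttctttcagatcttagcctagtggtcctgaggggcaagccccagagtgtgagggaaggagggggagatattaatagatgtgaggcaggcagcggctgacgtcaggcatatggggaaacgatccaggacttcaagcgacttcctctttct
The Gla window (chrX:134600956-134601255, minus strand) held 2 matches, 194 and 227 bases before the start. The Lamp1 window (chr8:13158911-13159210, plus strand) held 4 matches between 15 and 61 bases before the start. In Glb1 (chr9:114400828-114401127, plus strand) the match lay 48 bases before the start. It lay 140 bases before the start in Gaa (chr11:119267713-119268012, plus strand) and 29 bases before it in Sgsh (chr11:119355461-119355760, minus strand). Gusb (chr5:130003000-130003299, minus strand), the gene with the smallest p in both microglial comparisons that involve Trem2 wild-type 5xFAD cells, had no such string in its window.

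Levels differed widely between the 38 genes when expressed per kilobase of exon, as the mean of the 5 group means. Lgmn (legumain, an asparagine-specific protease) was highest at 46546 normalized counts per kilobase. Laptm5, a lysosomal membrane protein of blood cells, followed at 43510. Grn, the precursor of progranulin, had 35877, Cd68 (macrosialin) 30120 and Psap, the precursor of the saposins that present lipids to hydrolases, 28527. Hexa and Lamp1 had 24253 and 21207, and no other member was above 8339. The lowest were Mitf at 27.5, Gla at 128, Acp5 at 174 and Tmem106b at 183 normalized counts per kilobase. The abundant genes therefore include enzymes, membrane proteins and progranulin alike, and the 3 transcription factors Tfe3, Tfeb and Mitf ranked 22nd, 31st and 38th.

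**Figure D1:**
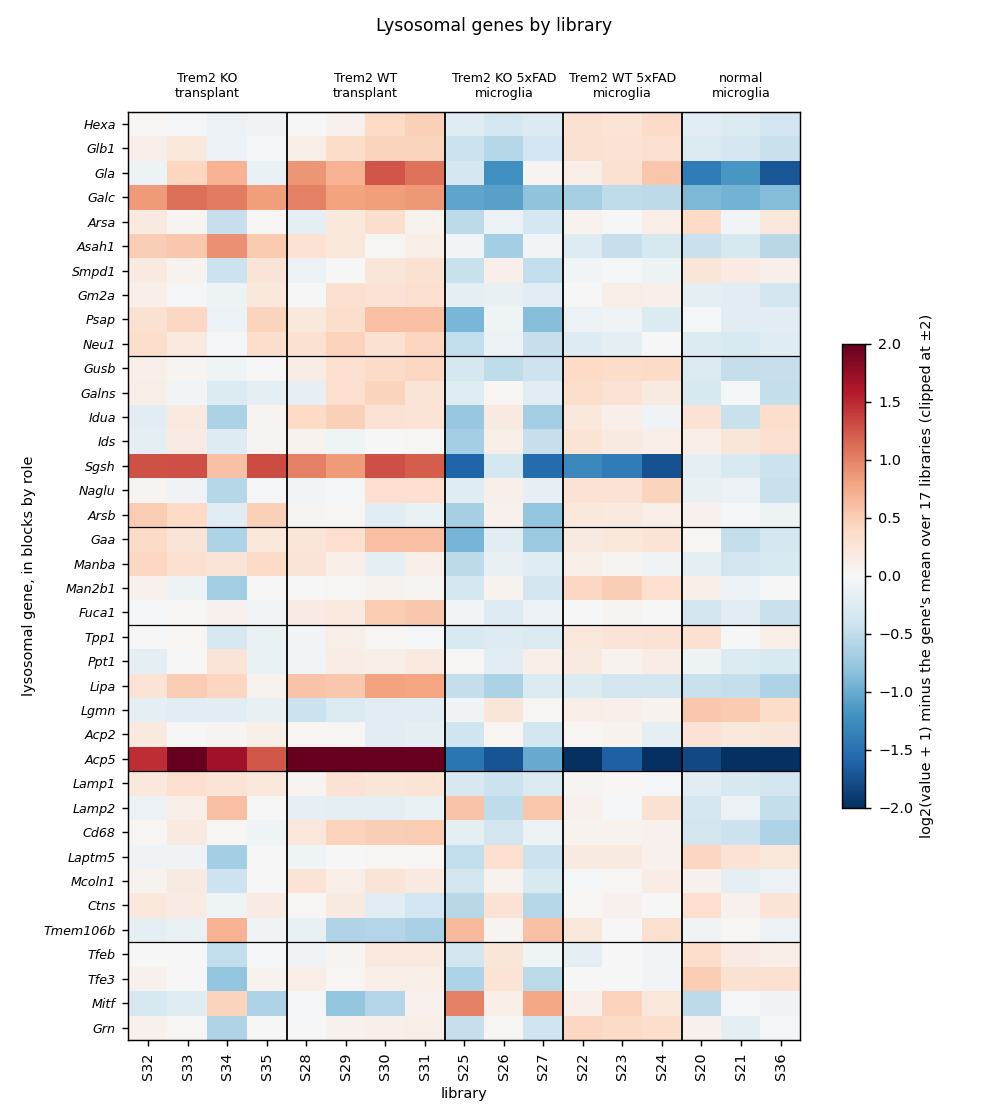
Heat map (KO, Trem2 knockout; WT, Trem2 wild type) of the 38 lysosomal genes (rows, in blocks by role) in 17 libraries (columns, by group); colour is log2(value + 1) minus the gene's mean over the 17 libraries, clipped at 2 in either direction. Galc, Sgsh and Acp5 are above their mean in all 8 transplant libraries, and S25, S27 and S34 share a pattern that sets them apart from other libraries of their groups.

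The question of the first comparison was how microglia with Trem2 differ in the presence of the 5xFAD transgenes. In Trem2 wild-type 5xFAD microglia 5 of the 38 genes were higher and 1 was lower than in normal microglia by limma, against 2.83% and 0.952% of all 12074 genes tested. On the recovered reads edgeR called 5 higher and 2 lower, and DESeq2 11 higher and 2 lower. Of all genes edgeR called 327 higher and 131 lower, and DESeq2 509 higher and 260 lower. The median log2 difference was 0.22 over the 38 genes and 0.00 over all genes. Gusb (beta-glucuronidase, which cuts glycosaminoglycan chains) had 17117, 16737 and 16876 normalized counts in Trem2 wild-type 5xFAD microglia, against 10684, 9334 and 9429 in normal microglia. Glb1 (beta-galactosidase, which acts on GM1 ganglioside) had 4609, 4515 and 4649 in 5xFAD microglia and 3033, 2936 and 2722 in normal microglia. Hexa, the alpha subunit of the hexosaminidase that acts on GM2 ganglioside, had 59076, 58106 and 62384 in 5xFAD microglia and 41182, 39858 and 36639 in normal microglia. For all 3 enzymes each 5xFAD library was above each normal library. Gla (alpha-galactosidase A, which removes galactose from globosides) had 398, 449.7 and 534 in 5xFAD microglia, against 137, 161 and 109.9 in normal microglia. The scavenger-receptor-like membrane protein Cd68 had 39706, 39718 and 40119 in 5xFAD microglia and 29241, 27918 and 24617 in normal microglia. These too were without overlap.

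The log2 differences (5xFAD minus normal) were 1.76 for Gla (SE 0.29, adjusted p = 0.00092), 0.79 for Gusb (SE 0.10, adjusted p = 0.000111) and 0.67 for Glb1 (SE 0.11, adjusted p = 0.00138). Hexa differed by 0.61 (SE 0.13, adjusted p = 0.0086) and Cd68 by 0.55 (SE 0.12, adjusted p = 0.0105). The gene called lower by limma was Sgsh, the sulfamidase that starts on the sulfated end of heparan sulfate. It had 456, 423 and 333 normalized counts in Trem2 wild-type 5xFAD microglia, against 977, 903 and 827 in normal microglia. It fell by 1.17 on the log2 scale (SE 0.26, adjusted p = 0.0149), with no overlap between the groups. By role, 3 of 10 genes of glycosphingolipid breakdown rose (Gla, Glb1 and Hexa), 1 of 7 of glycosaminoglycan breakdown rose and 1 fell (Gusb and Sgsh), and 1 of 7 membrane proteins rose (Cd68). None of the 4 genes of glycogen and glycoprotein breakdown passed by limma, although all 4 had an unadjusted p under 0.05. DESeq2 called Fuca1 among them (0.37, adjusted p = 0.0282), and limma on values corrected for transcript GC content, a setting chosen after seeing the data, called Gaa (0.58, adjusted p = 0.00795) and Man2b1 (0.45, adjusted p = 0.0164). None of the 6 proteases, lipases and phosphatases passed by limma either, with 3 under an unadjusted p of 0.05. The legumain gene Lgmn, an asparaginyl protease, was lower by edgeR (−0.39, adjusted p = 0.019), by DESeq2 (−0.37, adjusted p = 0.00248) and with GC-corrected values (−0.36, adjusted p = 0.048), but was not called by limma on the deposited values (−0.37, adjusted p = 0.115). It had 99084, 96987 and 94297 normalized counts in Trem2 wild-type 5xFAD microglia, against 130575, 129896 and 115799 in normal microglia, with no overlap. Among members not called, the smallest p-values belonged to Naglu (0.58, adjusted p = 0.0586) and Galns (0.55, adjusted p = 0.0749), both of glycosaminoglycan breakdown. Fuca1, which removes fucose, followed (0.37, adjusted p = 0.0869), then Galc (0.34, adjusted p = 0.113). Tfeb, Tfe3 and Grn differed by −0.30, −0.40 and 0.43, with adjusted p of 0.373, 0.397 and 0.205. Grn was called by limma with GC-corrected values (0.49, adjusted p = 0.00892). DESeq2 also called Lamp1 (0.33, adjusted p = 0.00367), Galc (0.34, adjusted p = 0.0395) and Gm2a (0.33, adjusted p = 0.0472). Gla, Glb1 and Gusb kept their calls without any 1 library. Hexa (0.56 to 0.65 with libraries left out) and Cd68 (0.48 to 0.60) were not called without S36, and Sgsh (−1.26 to −1.03) was not called without S20, S21 or S24.

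Summed markers of other cells also differed between these groups, without overlap. Neutrophil markers (13 of 14 in the table, none at 0 in all libraries of a group) summed to 15327 to 18073 normalized counts in Trem2 wild-type 5xFAD microglia, against 19567 to 32337 in normal microglia. Csf3r made up most of the 5xFAD sums and overlapped, at 11125 to 12883 against 10586 to 14129. Mpo overlapped as well, at 59.3 to 204 against 8.56 to 217. Monocyte markers (10 of 10) summed to 1886 to 2093 with the transgenes, against 2446 to 3654 in normal microglia. Fn1 went the other way on average, at 335 to 674 with the transgenes, against 227 to 364 in normal microglia. T and NK cell markers (9 of 10) summed to 184 to 322 with the transgenes, against 585 to 1003 in normal microglia. Summed endothelial markers (8 of 8) were higher, at 1551 to 1853 in 5xFAD microglia against 733 to 1313 in normal microglia. Pecam1 was lower on average, at 465 to 726 against 528 to 880, and Cdh5 overlapped. The share of mitochondrial transcripts was 0.120% to 0.141% with the transgenes, against 0.0579% to 0.0826% in normal microglia. The part of these values in the differences was not tested. In bulk samples fewer cells of a type and less RNA per cell cannot be told apart.

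**Figure D2:**
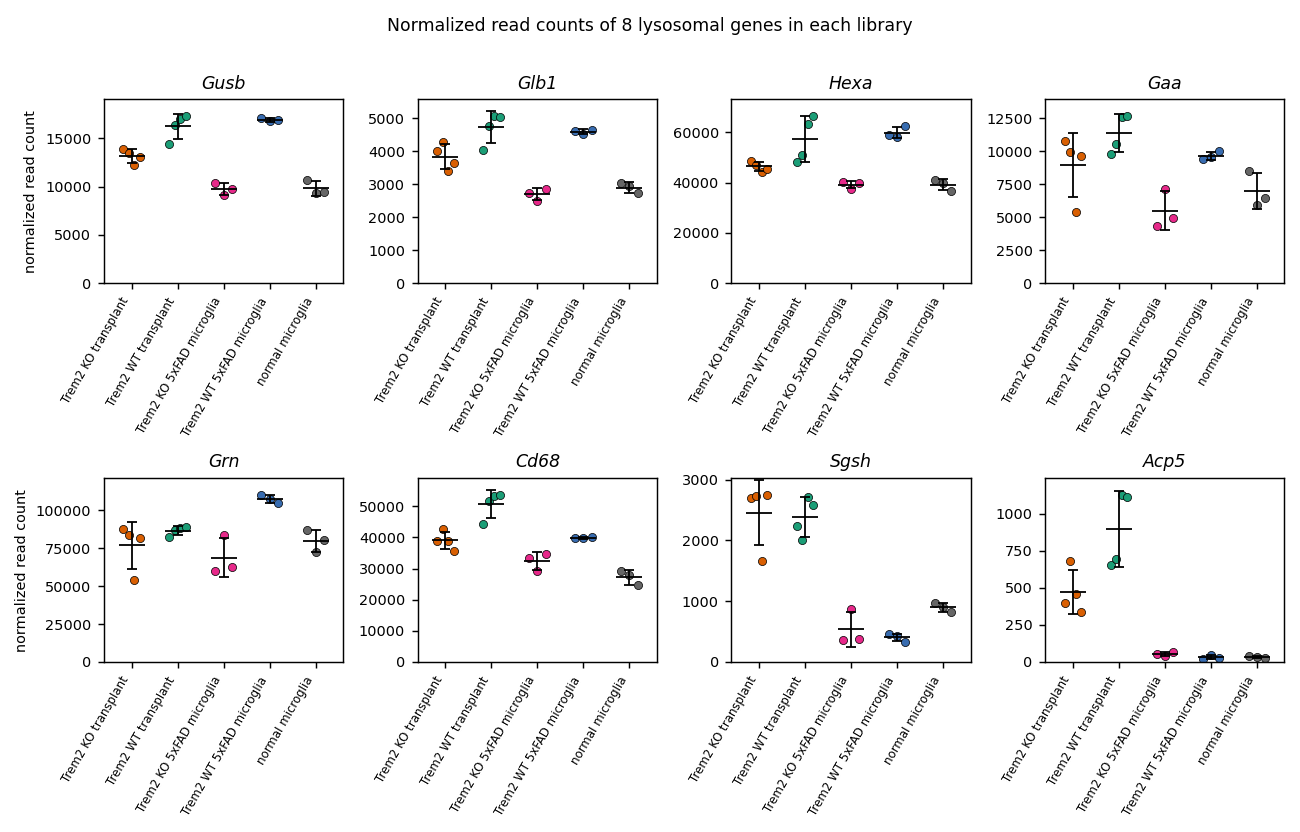
Normalized read counts (linear axes from 0) of 8 lysosomal genes in each library, by group; each point is 1 library, and the bars give the mean and SD of 3 or 4 libraries. Gusb, Glb1 and Hexa lie lower in Trem2 knockout than in Trem2 wild-type 5xFAD microglia without overlap, while Sgsh and Acp5 are higher in both transplant groups than in any microglia.

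Trem2 knockout 5xFAD microglia differ from normal microglia in both the transgenes and Trem2, and this comparison uses the same 3 normal libraries as the one above. Here 0 of the 38 genes were higher and 2 were lower by limma, against 2.7% and 1.21% of all genes. Without adjustment 16 had p under 0.05 by limma, as did 3462 of all 12074 genes. EdgeR called 0 higher and 3 lower, against 358 and 85 of all genes. DESeq2 called 1 higher and 5 lower, against 836 and 430 of all genes. The median was −0.09 over the 38 genes and 0.03 over all genes. Acp2 (lysosomal acid phosphatase) had 5243, 7107 and 5337 normalized counts in knockout 5xFAD microglia, against 8442, 8041 and 8202 in normal microglia. Tpp1 (a tripeptide-removing protease of the lysosome) had 7539, 7819 and 7657 in knockout 5xFAD microglia, against 11488, 9321 and 10260.5 in normal microglia. Neither gene overlapped between the groups. Acp2 fell by 0.49 (SE 0.12, adjusted p = 0.0386) and Tpp1 fell by 0.43 (SE 0.11, adjusted p = 0.0399).

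Gusb, Glb1 and Hexa lay within or near the normal range in knockout 5xFAD microglia. Gusb had 10322, 9117 and 9782 normalized counts there, a log2 difference of −0.01 from normal microglia (SE 0.10, adjusted p = 0.957). Hexa had 40405, 37587 and 39768, a difference of 0.00 (SE 0.13, adjusted p = 0.993). Glb1 had 2748, 2503 and 2850, a difference of −0.10 (SE 0.11, adjusted p = 0.565). Members with the smallest p among those not called were Ids (−0.57, adjusted p = 0.0586), Lgmn (−0.41, adjusted p = 0.0653), Sgsh (−0.86, adjusted p = 0.0681) and Gla (0.92, adjusted p = 0.0697). Sgsh had 367, 873 and 383 in the knockout libraries S25, S26 and S27, so that S26 was in the range of normal microglia and the other two were not. Acp2 and Tpp1 lost their calls without any of S20, S21, S36, S25 or S27 and without S25 and S27 together (0 called). Without S26 the count was 6 higher and 15 lower, while 18.4% and 19.8% of all genes were then called. With upper-quartile factors 345 of all genes were higher and 65 lower, against 326 and 146 with the deposited scaling, and 0 of the 38 were called. Summed neutrophil markers were 55409 to 136837 in knockout 5xFAD microglia and 19567 to 32337 in normal microglia. Csf3r went the other way on average, at 6698 to 11101 against 10586 to 14129. Monocyte markers summed to 7289 to 18204 in knockout 5xFAD libraries, against 2446 to 3654 in normal ones. The part of these markers in the differences was not tested.

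The next comparison set Trem2 knockout against wild type within 5xFAD microglia. It shares libraries with both comparisons above. Of the 38 genes 8 were lower in knockout microglia and 0 were higher by limma, against 2.59% and 2.5% of all genes. Without adjustment 20 had p under 0.05 by limma, as did 2626 of all 12074 genes. EdgeR called 8 lower and DESeq2 9 lower, with 0 higher by either. Of all genes edgeR called 312 higher and 257 lower, and DESeq2 522 higher and 479 lower. The log2 difference was negative in 31 of 38 genes, with a median of −0.33 against −0.01 over all genes. The 8 were Glb1, Hexa and Galc of glycosphingolipid breakdown, Gusb of glycosaminoglycan breakdown, Gaa and Man2b1 of glycogen and glycoprotein breakdown, Tpp1 among proteases, and Grn. None of the 7 membrane proteins was called by limma, and 2 of them had an unadjusted p under 0.05; edgeR and DESeq2 both called Lamp1 (−0.37 by either).

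Gusb averaged 9740 ± 603 normalized counts in knockout and 16910.0 ± 192 in wild-type 5xFAD microglia (SD, n = 3 each), with the 6 values given above and no overlap. It fell by 0.80 on the log2 scale in knockout microglia (SE 0.10, adjusted p = 9.25e-05). Glb1 averaged 2700.2 ± 178 in knockout and 4591 ± 68.8 in wild-type 5xFAD microglia, a fall of 0.77 (SE 0.11, adjusted p = 0.00033). Hexa averaged 39253 ± 1478 in knockout and 59855 ± 2243 in wild-type 5xFAD microglia, a fall of 0.61 (SE 0.13, adjusted p = 0.00824). In these 3 enzymes S26 was the lowest of the 3 knockout libraries, and S25 and S27 were also below each wild-type library. Tpp1 had 7539, 7819 and 7657 in knockout and 10923, 11201 and 11445 in wild-type 5xFAD microglia, and fell by 0.54 (SE 0.11, adjusted p = 0.00541). These 4 calls held without any 1 library.

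The other 4 calls did not hold without each library. Grn, whose product progranulin is cut into granulins inside lysosomes, had 60068, 83504 and 62424 normalized counts in knockout microglia (S25, S26 and S27), against 110145.7, 107816 and 104733 in wild-type microglia. Gaa (acid alpha-glucosidase, the enzyme of glycogen breakdown) had 4349, 7146 and 4939.6 in knockout and 9391, 9578 and 9992 in wild-type microglia. Man2b1, an alpha-mannosidase of glycoprotein breakdown, had 24300.2, 32792 and 24161 in knockout and 41214, 43802 and 39050.1 in wild-type microglia. In all 3 genes S26 lay above S25 and S27 but below each wild-type library. Galc, which cleaves galactosylceramide of myelin, had 902, 884 and 1071 in knockout and 1183, 1320.4 and 1309 in wild-type microglia, again without overlap. The falls were 0.66 for Grn (SE 0.17, adjusted p = 0.0302), 0.85 for Gaa (SE 0.22, adjusted p = 0.0332), 0.62 for Man2b1 (SE 0.17, adjusted p = 0.0368) and 0.42 for Galc (SE 0.11, adjusted p = 0.0352). Members next in p were Lamp1, the main glycoprotein of the lysosomal membrane (−0.37, adjusted p = 0.056), Arsb (−0.64, adjusted p = 0.0693), Ids (−0.53, adjusted p = 0.0701) and Gla (−0.84, adjusted p = 0.0994).

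Leaving out S25 and S27 together left S26 as the lone knockout library, assumed to vary like the other groups. Then 1 gene was higher and 3 lower, with 0.765% and 1.19% of all genes called, and the 38 genes had a median of −0.21. The 3 lower were Gusb (−0.89, adjusted p = 0.00187), Glb1 (−0.87, adjusted p = 0.00416) and Gla (−1.56, adjusted p = 0.0137), and the higher one was Sgsh (1.12, adjusted p = 0.0306). Hexa (−0.67, adjusted p = 0.073), Tpp1 (−0.52, adjusted p = 0.118), Grn (−0.36, adjusted p = 0.595), Gaa (−0.43, adjusted p = 0.651) and Man2b1 (−0.33, adjusted p = 0.641) were not called in that fit. Without S26 the count was 1 higher and 22 lower, with 13.3% and 17.2% of all genes called, and Acp5 was the higher one (0.96, adjusted p = 0.0457). With 1 library left out, Grn, Gaa and Man2b1 lost their calls without any of S22, S23, S24, S25 or S27 (−0.81 to −0.57, −1.06 to −0.70 and −0.77 to −0.55), and Galc without S22, S23, S24 or S25 (−0.51 to −0.37). The total was 4 without each of S22, S23, S24 and S25. Neutrophil markers summed to 55409 to 136837 in knockout and 15327 to 18073 in wild-type 5xFAD microglia. Csf3r made up most of the wild-type sums, at 11125 to 12883, and was lower in each knockout library, at 6698 to 11101. The other neutrophil markers were higher in each knockout library. Monocyte markers summed to 7289 to 18204 in knockout and 1886 to 2093 in wild-type 5xFAD microglia, and the part of both in the falls was not tested. With GC-corrected values 9 genes were lower and 0 higher, and the 8 were among them. Of all 12071 genes 485 were then lower and 409 higher.

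**Figure D3:**
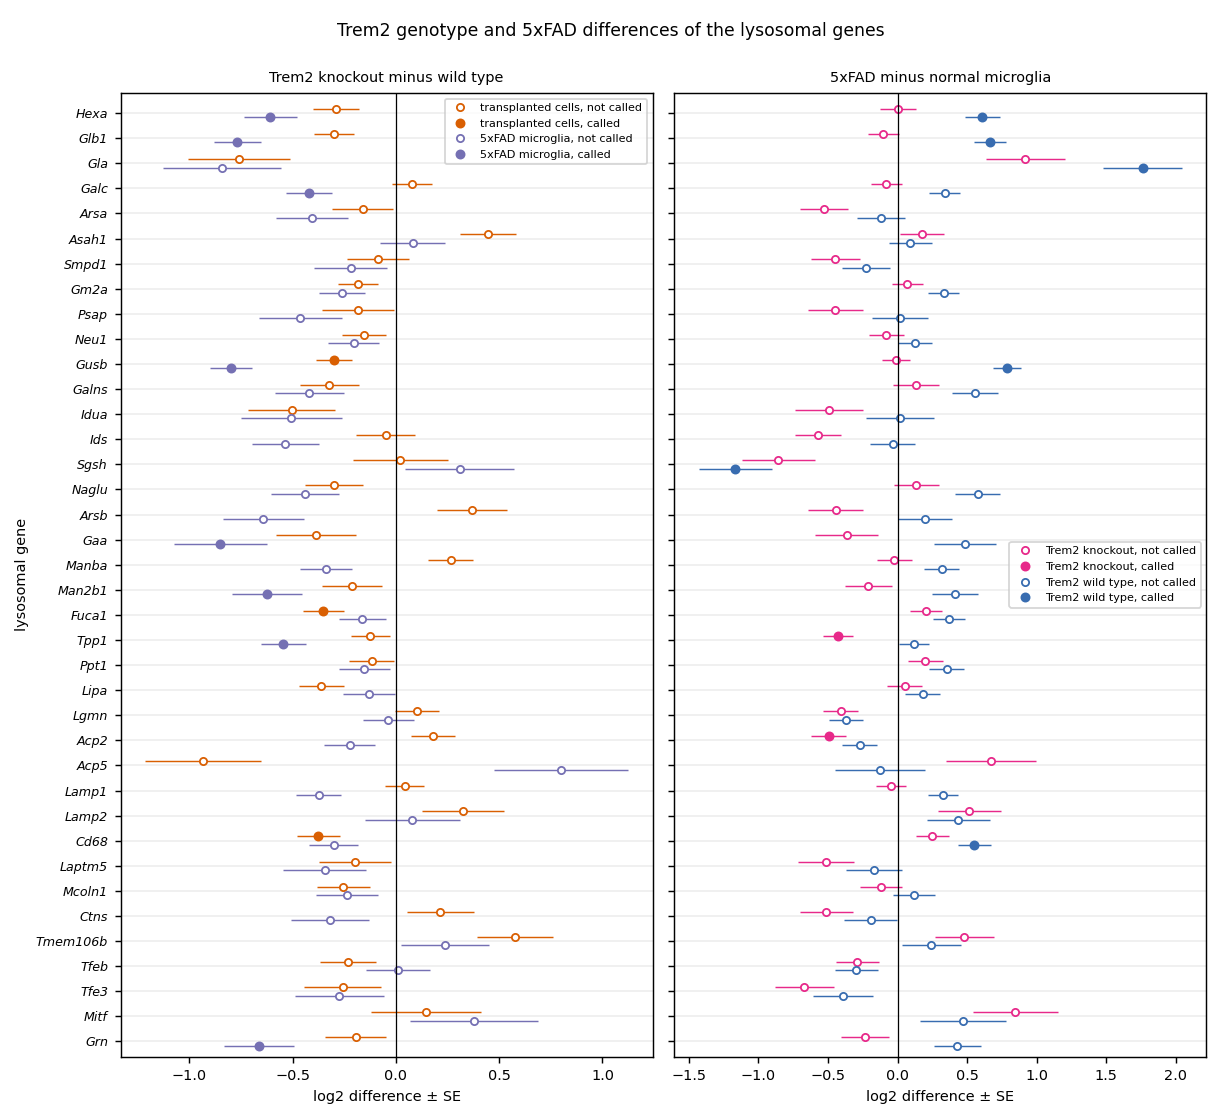
Log2 differences with SE of the 38 lysosomal genes (rows): left, Trem2 knockout minus wild type in transplanted cells (orange) and in 5xFAD microglia (purple); right, 5xFAD minus normal microglia for Trem2 knockout (pink) and wild type (blue). Filled points are called at an adjusted p under 0.05 and open points are not: 3 genes in transplants and 8 in microglia on the left, all negative, and 2 and 6 on the right.

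The same genotype comparison was made within transplanted cells, all in Trem2 knockout 5xFAD hosts. Of the 38 genes 3 were lower with knockout donors and 0 higher by limma, against 3.75% and 2.99% of all genes. Without adjustment 15 had p under 0.05 by limma, as did 3245 of all 12074 genes. EdgeR called 2 higher and 2 lower, against 597 and 430 of all genes. DESeq2 called 2 higher and 8 lower, against 731 and 964 of all genes. The median was −0.18, against −0.05 over all genes. Cd68 had 38922, 42685, 38854 and 35753 normalized counts in knockout transplants, against 44182, 51724, 53408 and 53641 in wild-type transplants. Fuca1 had 6566, 6805, 7118 and 6465 in knockout and 7549, 7719, 9584 and 9762 in wild-type transplants. Gusb had 13888, 13488, 12232 and 13065 in knockout and 14363, 16365, 16959 and 17277 in wild-type transplants. In each gene the groups did not overlap, and S30 and S31 were among the highest of the wild-type libraries. Cd68 fell by 0.38 (SE 0.10, adjusted p = 0.0394), Fuca1 fell by 0.35 (SE 0.10, adjusted p = 0.0417) and Gusb fell by 0.30 (SE 0.09, adjusted p = 0.0498).

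Cd68 and Gusb lost their calls without any of S29, S30, S31, S32, S33, S34 or S35, and Fuca1 without any of these but S29. The count was 2 higher and 8 lower without S28, and 0 without S34 alone or without S30 and S31 together. Cd68 ranged from −0.44 to −0.33 with a library left out, Fuca1 from −0.41 to −0.29 and Gusb from −0.36 to −0.27. With TMM factors the split was 2 higher (Asah1, 0.52, and Tmem106b, 0.65) and 0 lower, and the split of all genes was then 5.29% higher and 3.01% lower. With GC-corrected values 2 were lower (Gla, −0.94, and Lipa, −0.57) and 0 higher, and the median over the 38 genes was −0.01. Of all 12071 genes 194 were then lower and 53 higher. Oligodendrocyte markers (8 of 8 in the table) summed to 4528 to 6234 in knockout transplants, where Cldn11 was at 0 in all 4 libraries, and to 7062 to 24195 in wild-type transplants; their part was not tested. Not called, with the smallest p-values, were Acp5 (−0.93, adjusted p = 0.0533), Lipa (−0.36, adjusted p = 0.0533), Asah1 (0.45, adjusted p = 0.054) and Tmem106b (0.58, adjusted p = 0.0626). Asah1, the acid ceramidase, had 23691, 24630.4, 31911 and 24189.7 in knockout and 20761, 19728, 17220.3 and 18493 in wild-type transplants, with no overlap. Galc, which was lower in knockout microglia, had a difference of 0.08 in transplants (SE 0.10, adjusted p = 0.634).

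Transplanted cells were next set against 5xFAD microglia of the same Trem2 genotype, a contrast of origin and treatment together. In wild-type cells, where the host of the transplant was also Trem2 knockout, 9 of the 38 genes were higher and 2 lower, against 13.6% and 14.6% of all genes. In knockout cells 14 were higher and 1 lower, against 11.7% and 13.7% of all genes. The medians were 0.04 and 0.28, against −0.03 and −0.02 over all genes. Summed microglia markers were lower in transplants, as given above. Fcrls was not, at 85689 to 104698 in knockout transplants against 81955 to 87855 in knockout 5xFAD microglia. In wild-type cells Fcrls overlapped, at 90268 to 100483 in transplants against 92930 to 97502 in microglia. Tmem119 and Cx3cr1 also overlapped between the knockout groups. Astrocyte markers (8 of 8 in the table) summed to 682 to 841 in knockout transplants, against 4646 to 7978 in knockout 5xFAD microglia. In wild-type cells they summed to 577 to 1128 in transplants and 4419 to 7263 in 5xFAD microglia. Slc1a3 carried much of this, at 3241 to 4930 in 5xFAD microglia and 122 to 326 in transplants. Gfap went the other way in wild-type cells, at 79.6 to 218 in transplants against 63.3 to 86.5 in microglia. The other listed genes were lower in transplants on average. Markers of border-associated macrophages (8 of 8) summed to 27766 to 41271 in knockout transplants, against 13113 to 20691 in knockout 5xFAD microglia. In wild-type cells these sums were 40543 to 46289 in transplants and 11882 to 13626 in 5xFAD microglia. The list was mixed, and Stab1, Mrc1 and Pf4 made up most of the sums. Cd163 was lower in transplants of both genotypes, at 40.9 to 131, against 289 to 692 in 5xFAD microglia. Lyve1, Cbr2 and F13a1 were lower in knockout transplants than in knockout 5xFAD microglia, and Folr2 overlapped there. Neutrophil markers summed to 16351 to 37024 in knockout transplants, against 55409 to 136837 in knockout 5xFAD microglia. In wild-type cells the sums were higher in transplants, at 23977 to 31738, against 15327 to 18073 in wild-type 5xFAD microglia. Csf3r made up most of the latter and went the other way on average, at 8206 to 11390 in transplants against 11125 to 12883. The part of these cell types in the differences was not tested.

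Acp5, the tartrate-resistant acid phosphatase of osteoclasts and some macrophages, differed most. It had 399, 679.5, 458 and 339.9 normalized counts in knockout transplants, against 51.4, 42.7 and 70.5 in knockout 5xFAD microglia. It had 654, 693, 1125 and 1109.9 in wild-type transplants, against 20.6, 45.2 and 29.9 in wild-type 5xFAD microglia. Each transplant library was several times above each microglial one. The log2 difference was 3.05 in knockout cells (SE 0.30, adjusted p = 5.56e-07) and 4.79 in wild-type cells (SE 0.30, adjusted p = 1.16e-09). Sgsh came next, with 2691, 2722, 1662 and 2745 in knockout transplants against 367, 873 and 383 in knockout microglia. In wild-type cells it had 2230.0, 2008, 2719 and 2586 in transplants against 456, 423 and 333 in microglia. It rose by 2.27 (SE 0.25, adjusted p = 1.6e-06) and 2.56 (SE 0.25, adjusted p = 2.86e-07) in knockout and wild-type cells. The knockout transplant at 1662 was S34.

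Galc had 3371, 4007, 3872 and 3365 normalized counts in knockout transplants and 3789, 3284, 3357 and 3415 in wild-type transplants. It had 902, 884 and 1071 in knockout and 1183, 1320.4 and 1309 in wild-type 5xFAD microglia. It differed by 1.94 in knockout cells (SE 0.10, adjusted p = 2.19e-10) and 1.44 in wild-type cells (SE 0.10, adjusted p = 6.19e-09). Lipa, the acid lipase that frees cholesterol from its esters, averaged 7394 ± 969 in knockout and 9467 ± 919.9 in wild-type transplants (SD, n = 4 each). It averaged 4291 ± 506 in knockout and 4676 ± 171 in wild-type 5xFAD microglia (n = 3 each), and rose by 0.78 in knockout cells (adjusted p = 6.51e-05) and by 1.01 in wild-type cells (adjusted p = 2.74e-06). Acp5, Sgsh, Galc and Lipa were called in both genotypes and kept the call without any 1 library, with TMM factors, with GC correction and with either count test. Neu1 (sialidase), Asah1 and Psap were also called in both: 0.57, 0.88 and 0.88 in knockout cells and 0.52, 0.51 and 0.60 in wild-type cells.

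Called in knockout cells alone were Lamp1 (0.60, adjusted p = 0.000226), Manba (beta-mannosidase, 0.65, adjusted p = 0.000427), Glb1 (0.50, adjusted p = 0.00155), Gusb (0.44, adjusted p = 0.00234) and Arsb (arylsulfatase B of dermatan sulfate breakdown, 0.75, adjusted p = 0.00522). Gaa (0.69, adjusted p = 0.0203), Acp2 (0.34, adjusted p = 0.0409) and, in the other direction, Mitf (−0.82, adjusted p = 0.0442) completed them. Psap, Arsb, Gaa, Acp2 and Mitf were called although the 2 knockout groups overlapped. Without S25 and S27, which leaves S26 as the lone knockout microglia library, Psap, Neu1, Arsb, Gaa, Acp2 and Mitf were no longer called. Lamp1 had 54857, 59900.5, 57309.7 and 54952 in knockout transplants against 38040.1, 35293 and 38849.97 in knockout 5xFAD microglia, with no overlap. Gaa, Acp2 and Mitf lost their calls without any of S25, S27, S32, S33 or S35 (0.54 to 0.92, 0.26 to 0.48 and −1.07 to −0.64). Called in wild-type cells alone were Fuca1 (0.33, adjusted p = 0.0248), Cd68 (0.34, adjusted p = 0.027), Lgmn (−0.39, adjusted p = 0.0155) and Tmem106b, a lysosomal membrane protein linked to dementia in people (−0.69, adjusted p = 0.0143). Tmem106b had 939, 683, 691 and 659.9 in wild-type transplants against 1222, 1049 and 1299.7 in wild-type 5xFAD microglia, with no overlap. Cd68 lost its call without any of S22, S23, S24, S29, S30 or S31 (0.32 to 0.41), Fuca1 without S22, S23, S24, S30 or S31 (0.27 to 0.40), and Psap without S22, S24, S30 or S31 (0.54 to 0.67). Tmem106b lost it without S22 or S24 (−0.81 to −0.62), Lgmn without S22 or S23 (−0.42 to −0.35) and Asah1 without S23 (0.45 to 0.56). With TMM factors the wild-type split was 9 higher and 4 lower, Man2b1 (−0.43) and Tpp1 (−0.30) having joined. Of all 12074 genes 1484 were then higher and 1978 lower. With GC-corrected values the wild-type split was 8 higher and 5 lower, against 1756 and 1903 of all 12071 genes. Cd68 (0.27, adjusted p = 0.0918) and Fuca1 (0.24, adjusted p = 0.147) were then not called, while Gla (0.77), Grn (−0.47), Man2b1 (−0.49) and Naglu (−0.42) were. In knockout cells the GC-corrected split was 16 higher and 2 lower, against 1747 and 1926 of all 12071 genes. Each of the 15 calls was kept, and Gla (0.73), Smpd1 (0.26) and Lgmn (−0.29) were added. Not called, with the smallest p-values, were Gla (0.65, adjusted p = 0.0782), Man2b1 (−0.38, adjusted p = 0.0831), Tpp1 (−0.24, adjusted p = 0.0858) and Mitf (−0.59, adjusted p = 0.137) in wild-type cells, and Gla (0.73, adjusted p = 0.0517), Cd68 (0.27, adjusted p = 0.0858), Gm2a (0.24, adjusted p = 0.112) and Lgmn (−0.26, adjusted p = 0.116) in knockout cells.

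**Figure D4:**
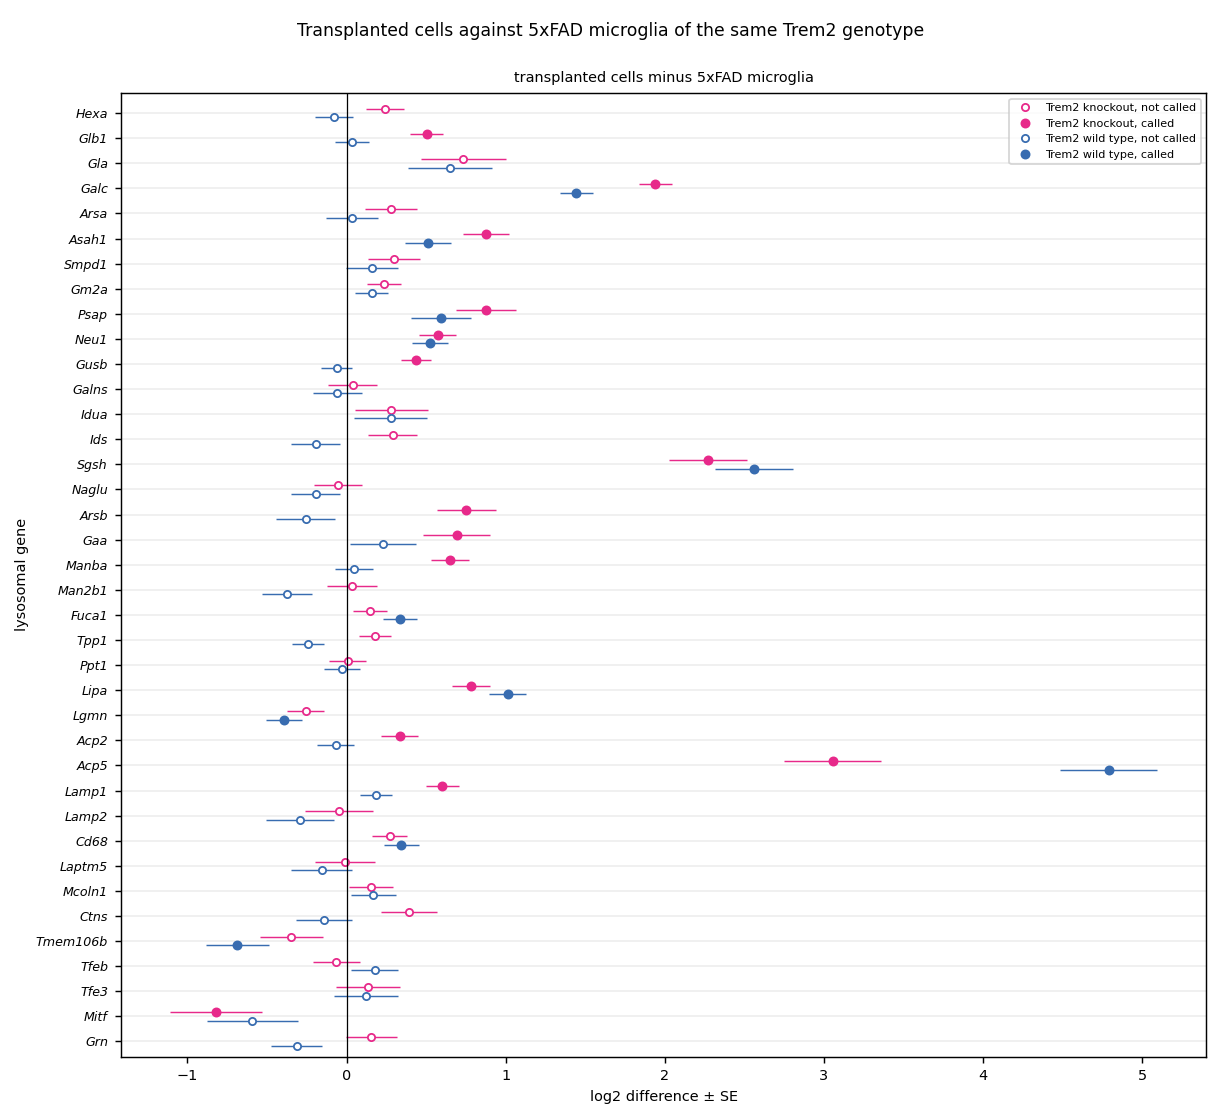
Log2 differences with SE of the 38 lysosomal genes (rows) between transplanted cells and 5xFAD microglia of the same Trem2 genotype, for knockout (pink) and wild-type (blue) cells; filled points are called at an adjusted p under 0.05. Open points are not called. Acp5, Sgsh and Galc lie farthest to the right in both genotypes, with Acp5 at 3.05 in knockout and 4.79 in wild-type cells.

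Wild-type transplants against knockout 5xFAD microglia is the contrast between the treated and the untreated Trem2 knockout host, and it uses libraries of several comparisons above. Of the 38 genes 21 were higher and 3 lower, against 17.3% and 17.8% of all genes, and 34 of 38 differences were positive. The median was 0.40, against −0.01 over all genes. Of the 10 genes of glycosphingolipid breakdown 9 rose: Galc (1.86), Gla (1.49), Psap (1.06), Glb1 (0.80), Neu1 (0.73), Hexa (0.53), Arsa (0.44), Asah1 (0.43) and Gm2a (0.42). Smpd1, the acid sphingomyelinase, was the exception (0.38, adjusted p = 0.0778). Gla had 673, 591, 869 and 768 normalized counts in wild-type transplants, against 283, 154 and 377 in knockout microglia, with no overlap. Of the 7 genes of glycosaminoglycan breakdown 3 rose: Sgsh (2.25), Idua (0.78), the iduronidase of heparan and dermatan sulfate, and Gusb (0.74). Gaa (1.08), Fuca1 (0.50) and Manba (0.39) rose among the 4 genes of glycogen and glycoprotein breakdown. Acp5 (3.99), Lipa (1.14) and Tpp1 (0.30) rose and Lgmn fell by 0.36 among the 6 proteases, lipases and phosphatases. Among 7 membrane proteins Cd68 (0.65), Lamp1 (0.56) and Mcoln1 (0.41), a calcium channel, rose, and Tmem106b fell by 0.93. Mitf fell by 0.97, while Grn (0.35, adjusted p = 0.0979), Tfe3 (0.39, adjusted p = 0.136) and Tfeb (0.17, adjusted p = 0.389) were not called. Next in p were Galns (0.36, adjusted p = 0.0776) and Ids (0.34, adjusted p = 0.094). Of the 24 calls 16 held without any 1 library. Without S25 and S27, which leaves S26 as the lone knockout microglia library, fewer of the 38 genes were called. Without S26 alone 30 were higher and 3 lower. Of all 12047 genes then tested 2951 were higher and 2923 lower, against 2085 and 2153 with all libraries. Idua (0.62 to 1.08) and Mitf (−1.22 to −0.79) lost the call without S25 or S27, Lgmn (−0.43 to −0.27) without S26 or S27, Manba (0.27 to 0.48) without S25 and Asah1 (0.23 to 0.53) without S26, S28 or S29. Tpp1 (0.27 to 0.33) lost it without S25, S27, S29 or S30, Arsa (0.34 to 0.55) without these or S31, and Mcoln1 (0.32 to 0.54) without S25, S27, S28, S30 or S31. With GC-corrected values 19 genes were higher and 4 lower, against 1917 and 1900 of all 12071 genes. Hexa (0.26, adjusted p = 0.113), Arsa (0.14, adjusted p = 0.333), Fuca1 (0.28, adjusted p = 0.0901) and Mcoln1 (0.12, adjusted p = 0.369) were then not called, and Tmem106b was at −0.30 (adjusted p = 0.0305). Ids (0.80), Ppt1 (0.37) and Tfeb (−0.24) were called with these values. With TMM factors, and with edgeR, Arsa, Asah1, Manba, Mcoln1 and Tpp1 were not called. Neutrophil markers summed to 23977 to 31738 in wild-type transplants and 55409 to 136837 in knockout 5xFAD microglia, though Csf3r overlapped. Summed microglia markers were lower in the transplants, but Fcrls was higher, at 90268 to 100483 against 81955 to 87855. The part of these markers was not tested.

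The last test asked whether the genotype difference itself differed between transplanted cells and microglia, which is the same as asking whether the difference by origin differed between genotypes. Of the 38 genes 1 was higher and 1 lower, against 0.87% and 1.95% of all genes, and 30 of 38 estimates were positive with a median of 0.20 against 0.00 over all genes. A positive value means that the knockout-minus-wild-type difference was greater in transplants than in microglia. Arsb had 11535, 10696, 6988 and 11248 normalized counts in knockout transplants and 8365, 8186, 6907 and 7386 in wild-type transplants. In microglia it had 5097, 8547 and 4686 with knockout and 9392, 9318 and 8854 with wild-type Trem2. It was thus higher in 3 of 4 knockout transplants than in any wild-type transplant, and lower in each knockout than in each wild-type microglial library. The estimate was 1.01 (SE 0.26, adjusted p = 0.0434). Acp5 went the other way, with an estimate of −1.74 (SE 0.43, adjusted p = 0.0346), made of −0.93 in transplants and 0.80 in microglia, where it had 20.6 to 70.5 normalized counts. Neither call held in all fits: Arsb had an adjusted p of 0.322 without S25 and S27 and 0.216 without S30 and S31, and Acp5 had 0.184 and 0.225. Over single libraries left out, Arsb ranged from 0.84 to 1.28 and lost its call without any of S22, S23, S24, S25, S27, S29, S30, S31, S32, S33 or S35. Acp5 ranged from −2.01 to −1.47 and lost it without S22, S24, S25, S27, S30, S31, S32 or S35. Next in p were Gusb (0.50, adjusted p = 0.0564), Manba (0.60, adjusted p = 0.0584), Galc (0.50, adjusted p = 0.0767) and Glb1 (0.47, adjusted p = 0.0983). With TMM factors Gusb (0.57), Glb1 (0.54) and Manba (0.68) were called as well, for 4 higher and 1 lower. Of all 12074 genes 156 were then higher and 223 lower.

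Few regulators of the pathway were called. Tfeb was not called by limma on the deposited values in any of the 8 comparisons, and averaged 1440.0 ± 220.1 normalized counts in knockout transplants, 1678 ± 147 in wild-type transplants, 1512 ± 317 in knockout 5xFAD microglia, 1483 ± 84.1 in wild-type 5xFAD microglia and 1824 ± 153 in normal microglia. Tfe3 was not called in that fit either, and averaged 3518 ± 885 in knockout transplants, 4088 ± 129 in wild-type transplants, 3239 ± 1191 in knockout 5xFAD microglia, 3757 ± 87.9 in wild-type 5xFAD microglia and 4950.4 ± 388 in normal microglia. Mitf, best known for pigment cells and osteoclasts, was low throughout, at 77.3 to 271. Ppt1 (a thioesterase that removes palmitate), Lamp2, Laptm5, Ctns (the cystine transporter), Smpd1, Ids, Galns, Naglu, Tfeb and Tfe3 were called in none of the 8 comparisons by limma on the deposited values, and in none by edgeR. DESeq2 called Naglu (0.57, adjusted p = 0.0175) and Galns (0.54, adjusted p = 0.0287) in Trem2 wild-type 5xFAD against normal microglia, and Ids (−0.53, adjusted p = 0.0323) in knockout 5xFAD against normal microglia. With GC-corrected values Naglu (0.67) and Galns (0.61) were called in the comparison of wild-type 5xFAD with normal microglia, and Ids (−0.92), Naglu (0.36) and Tfe3 (−0.46) in that of knockout 5xFAD with normal microglia.

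Other lysosomal genes outside the 38 were counted from 5 lists, all of whose genes were in the table, and calls are by limma. In Trem2 wild-type 5xFAD against normal microglia 3 of 16 other enzymes and helper proteins rose, among them Npc2, which hands on cholesterol (0.70), and Scpep1, a carboxypeptidase (0.52), where 2.83% of all genes were higher. Of 19 other membrane proteins Cd63, a tetraspanin, rose (1.06), and of 11 genes of enzyme sorting Gnptab rose (1.08), which encodes the catalytic subunits of the enzyme that starts the mannose 6-phosphate tag. Gnptab had 1031, 960.4 and 1165 normalized counts in wild-type 5xFAD microglia, against 533, 458 and 495 in normal microglia. In knockout 5xFAD microglia it had 556, 510.0 and 558, a fall of 0.95 from wild type (adjusted p = 0.000587). It was also called in the test of the genotype by origin (1.17, adjusted p = 0.00241). Of 18 subunits of the proton pump Atp6v1a (0.79) and Atp6v0d2 rose. Atp6v0d2 had 87.5, 78.3 and 114 normalized counts in wild-type 5xFAD microglia, against 1.0, 0 and 0 in normal microglia. Of 20 genes of nutrient sensing at the lysosome 0 were called. An unadjusted p under 0.05 was found in 4 of them, near the share of all genes (1955 of 12074).

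In knockout against wild-type 5xFAD microglia 3 of the 16 other enzymes fell, among them Ctsa by 0.50 and Man2b2 by 0.80, and 1 of 19 other membrane proteins fell (Clcn7, a chloride and proton exchanger, by 0.79), where 2.59% of all genes were lower. Their medians were −0.25 and −0.17. In transplants against microglia the other membrane proteins had 10 higher and 1 lower of 19 in knockout cells, and 3 higher and 1 lower in wild-type cells. Of all genes 11.7% were higher and 13.7% lower in knockout cells, and 13.6% and 14.6% in wild-type cells, so that the 3 of 19 lie near the share of all genes. Cd164 was the lower one in both (−0.76 and −1.24), and Laptm4a rose in both (0.71 and 0.76). Of 16 other enzymes 1 was higher and 2 lower in each genotype. Arsg, a sulfatase, was lower in knockout transplants (−3.04) and in wild-type transplants (−2.44). Of 11 sorting genes 3 were higher and 1 lower in knockout cells, and 2 higher and 1 lower in wild-type cells. The lower one was Sort1, a sorting receptor, which fell by 1.91 and 2.14. Of 18 proton pump subunits 3 were higher and 2 lower in each genotype, near the shares of all genes. The lower ones were Atp6v0a2 (−0.71 and −1.24) and Atp6v1c1 (−0.92 and −0.87), and Atp6v0c was among the higher ones in both. Hexa differed by 0.24 in knockout cells (adjusted p = 0.156) and −0.08 in wild-type cells (adjusted p = 0.678), and was called in neither.

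S34 differed from the other knockout transplants, and S25 and S27 from S26, in a similar way over the 38 genes. S34 was lower than the mean of the other 3 libraries in 27 genes and higher in 11, with a median log2 difference of −0.23. The difference ran from −0.90 for Gaa to 0.83 for Tmem106b. S25 and S27 were lower than S26 in 23 genes and higher in 15, with a median of −0.27, from −1.22 for Sgsh to 1.08 for Gla. The sign was the same in 34 of 38 genes, and Spearman's rho between the 2 sets of differences was 0.89 across genes, which are not independent replicates. Lamp2, Mitf, Asah1 and Gla were higher in S34, S25 and S27, whereas Tfe3, Laptm5, Grn and Psap were lower. The differences ran with the GC content of the longest transcript: rho was −0.74 for S34 and −0.57 for S25 and S27 over the 38 genes. Transcripts of Tmem106b, Lamp2 and Ids, with 38.5%, 38.7% and 41.4% GC, were the poorest in GC, and those of Tfeb and Naglu, with 63.2% and 59.8%, the richest. Over 12071 genes the correlation of a library's deviation with GC was −0.54 in S34, −0.40 in S25 and −0.34 in S27, against −0.17 to 0.38 in the other 14 libraries.

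**Figure D5:**
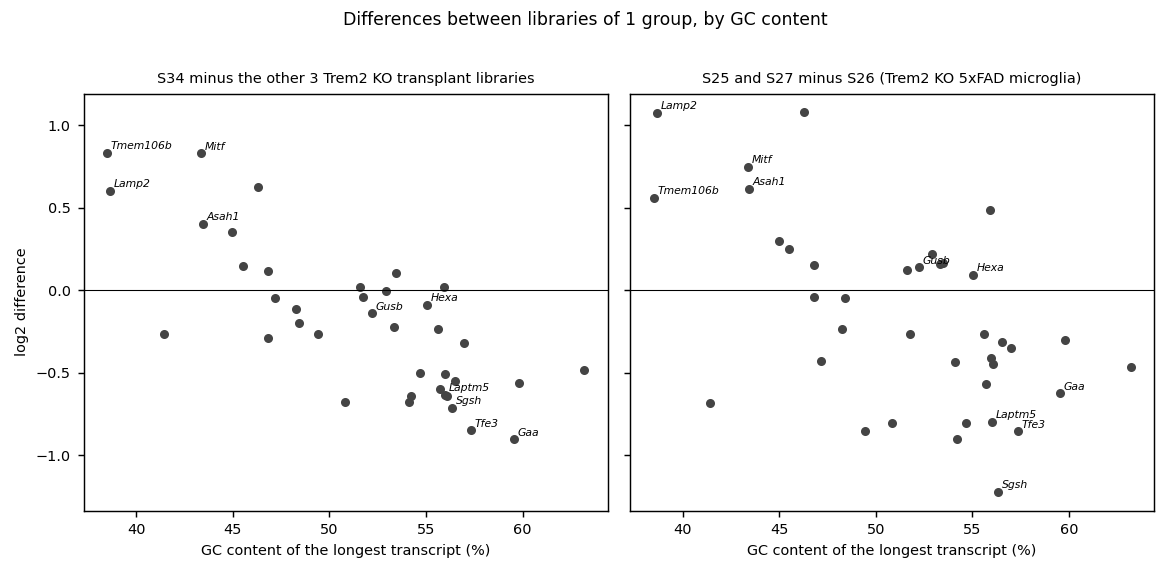
Log2 difference of each of the 38 lysosomal genes (points) against the GC content of its longest transcript in percent: left, S34 minus the mean of the other 3 Trem2 knockout transplant libraries; right, the mean of S25 and S27 minus S26, all Trem2 knockout 5xFAD microglia. Genes poor in GC such as Tmem106b and Lamp2 lie above 0 in both panels, and Gaa and Tfe3 lie below 0.

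Some values may include reads of other genes, since the sources used here do not state whether strand was used in counting. Exons of Arsb overlap Gm26527 on the opposite strand over 48.2% of their length, those of Sgsh overlap Card14 over 21.9%, those of Arsa overlap C230037L18Rik over 19.8% and those of Acp2 overlap Ddb2 over 13.3%. Acp5, Galc, Lamp1, Idua and Ppt1 share 0.921% to 8.48% with genes on the opposite strand, and Glb1 shares 6.89% with Tmppe on its own strand. Reads from such stretches cannot be told apart. Of the 38 genes 6 start within 1000 bases of a protein-coding gene on the opposite strand, a feature looked at after the values of Slc26a11 had been seen. Slc26a11, a sulfate and chloride transporter, starts 21 bases from Sgsh on chromosome 11. It had 1379, 1263, 811 and 1064 normalized counts in knockout transplants, against 107, 188 and 108 in knockout 5xFAD microglia. In wild-type cells it had 984, 1046, 867 and 885.5 in transplants, against 169, 178 and 143 in 5xFAD microglia. It differed by 3.08 (SE 0.24, adjusted p = 2.84e-08) and 2.53 (SE 0.24, adjusted p = 2.82e-07), beside 2.27 and 2.56 for Sgsh. Gaa lies at 119267887 to 119285454 of the same chromosome, where Sgsh lies at 119343425 to 119355536 (GRCm38), and differed by 0.69 in knockout cells and 0.23 in wild-type cells (adjusted p = 0.448). Of the other pairs, Tmem202, which starts 307 bases from Hexa, differed by 0.61 between wild-type 5xFAD and normal microglia (adjusted p = 0.0405), as Hexa did (0.61). Hnrnph2, 54 bases from Gla, differed by 0.07 (adjusted p = 0.89) in the comparison in which Gla differed by 1.76.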

How the data were processed

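CD45+CD11b+ brain cells were sorted and sequenced with the SMART-Seq v4 kit on a NovaSeq instrument, per the labels' protocols. The names RSEM, HTSeq, bcl2fastq, DESeq2 (3.17), STAR 2.5.2b, mm10 and GRCm38.p6 come from the submitters' processing notes, which give them no role; the annotation is not stated. The deposited signal holds reads scaled, as its values show, by a constant for each library: 100% of values were whole multiples of a step (tolerance 0.02), so reads were recovered for the count tests. Depth was 16044078 to 30606394 reads per library.

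Columns were matched to groups by name; only normal columns carry replicate numbers. Genes needed at least 10 normalized counts in 3 libraries. A limma model (3.58.1, trend, R 4.3.3) with a mean per group over all 17 libraries was fitted to log2(value + 1), so fold changes of low genes are understated. Each of 8 two-sided contrasts was adjusted by Benjamini-Hochberg over 12074 genes, and genes with adjusted p under 0.05 were called. Alternatives were other pseudocounts and filters, TMM and upper-quartile factors, edgeR 4.0.16 and DESeq2 1.42.0 on recovered reads, only the groups compared, close libraries averaged, libraries left out, and a GC correction. Scripts were tested on simulated data. Positions come from GENCODE vM21. The members, the other gene lists and the markers were chosen with earlier results of these data known. In each comparison every member called is named, with up to 4 not called and up to 4 genes of each other list, those with the smallest p; other members and genes named were chosen after their values were seen. Results for some genes of the other lists are not reported here.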

Additional observations from a re-analysis of the deposited data

Results flagged for a closer look

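Of 76 sets of 4 libraries checked (38 genes in the 2 transplant groups), 10 held a library far from the other 3 by Dixon's criterion, which chance alone meets in about 1 in 20 sets. In 7 of the 10 the library was S34 among Trem2 knockout transplants. It was high in Asah1 (31911.18 normalized counts, against 23691 to 24630.4 in the other 3 libraries) and Tmem106b (1692.6, against 912 to 989). It was low in Sgsh (1661.71, against 2691 to 2745), Laptm5 (68625.34, against 104986 to 109319), Tfeb (1111.0, against 1524 to 1565), Tfe3 (2197.5, against 3842 to 4052) and Grn (54169.54, against 82054 to 87611). S34 also held 0.201% mitochondrial reads, against 0.0912% to 0.153% in the other 3 libraries; the cause was not tested.

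Among Trem2 wild-type transplants S28 was low in Gm2a (9620.01, against 11804 to 12155) and high in Tmem106b (939.41, against 659.9 to 691). S29 was low in Tfe3 (3894.72, against 4152 in each of the other 3).

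The difference between Trem2 knockout and wild type was itself different in transplants and microglia for 2 genes by limma, with an estimate of 1.0095 for Arsb (adjusted p = 0.0434) and −1.7358 for Acp5 (adjusted p = 0.0346). Neither held with S25 and S27, or S30 and S31, left out.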

How the results depend on the processing

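Counts of called members are given as totals over both directions. For Trem2 wild-type 5xFAD against normal microglia the total of 6 became 13 with DESeq2 and 12 with GC-corrected values. It became 22 with a model of only these groups, and ran from 4 to 6 with 1 library left out. Of all genes that model called 1008 higher and 821 lower of 11196, against 342 and 115 of 12074 in the main fit. GC-corrected values called 469 higher and 222 lower of 12071. For Trem2 knockout 5xFAD against normal microglia the total of 2 became 0 with upper-quartile factors, a model of only these groups, close libraries averaged, or S25 and S27 left out, and 6 with DESeq2 or GC correction. It ran from 0 to 21 with 1 library left out, the 21 being without S26. For Trem2 knockout against wild-type 5xFAD microglia the total of 8 became 4 with only these groups, 2 with close libraries averaged and 4 without S25 and S27, and ran from 4 to 23 with 1 library left out. For knockout against wild-type transplants the total of 3 became 5 with a filter of 50, 1 with upper-quartile factors, 10 with DESeq2, 0 with only these groups, close libraries averaged or S30 and S31 left out, and 6 without S25, S27 and S34. It ran from 0 to 10 with 1 library left out. For transplants against microglia of wild-type cells the total of 11 became 18 with only these groups, 5 with close libraries averaged and 7 without S30 and S31, and ran from 6 to 11. In knockout cells the total of 15 stayed within 1.5 times under each setting and ran from 12 to 21. For wild-type transplants against knockout microglia the total of 24 became 14 without S25 and S27 and ran from 18 to 33. For the genotype by origin test the total of 2 became 1 with no filter or with only these groups, 5 with TMM factors, GC correction or without S25, S27 and S34, 4 with edgeR, 8 with DESeq2, and 0 with close libraries averaged, without S25 and S27, or without S30 and S31; it ran from 0 to 7. The causes were not tested.

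Over single genes and settings, 1660 values kept direction and side of the threshold, 271 lost and 102 gained a call, and 1 reversed: Ids in wild-type transplants against knockout microglia, at −0.1161 without S25 and S27. The GC correction, the fits without S25, S27 and S34 together, and the genotype by origin tests without a close pair were chosen after seeing the data. TMM factors moved the median of all genes by under 0.1 on the log2 scale. No paired analysis was possible because the columns outside the normal group carry no replicate number. Acp5 was low in 5xFAD microglia, at 20.6 to 70.5 normalized counts, which limits its precision there.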
